A study of Mus musculus with 4 samples.

Results

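The genes described here are the killer cell lectin-like receptors, taken as every symbol in the deposited gene lists that starts with Klr followed by a, b, c, d, e, g, i, j or k. The rule found 26 of 32285 genes: 11 Klra (Ly49) genes, 5 Klrb1 (NKR-P1) genes, 5 genes of the CD94 and NKG2 group, 3 Klre1 and Klri genes, and Klrg1 with Klrg2. They were measured in single cells of subcutaneous tumours of Pan02 in female C57BL/6 mice of 6 to 7 weeks; Pan02 is a line of mouse pancreatic cancer cells. Groups were formed at a tumour size of about 50 mm3, and antibodies were given 3 times a week. The groups were control (IgG), anti-PD-1, an antibody to a checkpoint receptor of T cells, anti-LIF, an antibody to the cytokine LIF, and combo, both antibodies. Doses were 25 mg/kg for IgG and anti-LIF and 200 µg an injection for anti-PD-1, which is described as given along with either of them. Each group was 1 library of 3 combined samples, so no difference between groups was tested, and all brackets below are 95% intervals of counting error alone. DNase treatment and the removal of debris and dead cells were optional and more than 1 sequencing instrument is named, without saying for which library, so a part of these in any difference between libraries was not tested.

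Klr receptors are C-type lectin-like proteins of the cell surface, best known from natural killer (NK) cells, where inhibitory members recognise MHC class I or related proteins on healthy cells and activating members recognise signs of stress or infection. Inhibitory members carry motifs that recruit phosphatases such as Ptpn6, whereas activating members pair with the adaptors Tyrobp (DAP12), Fcer1g or Hcst (DAP10). Activated CD8 T cells, regulatory T cells and some dendritic cells also use members of the family. In the GRCm38 annotation, 24 of the 26 genes lay on chromosome 6 between 128609227 and 131247362, the NK gene complex. Klrg1 lay on the same chromosome at 122270596 to 122282882 and Klrg2 at 38625693 to 38637242.

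Promoters of 4 Klra genes are shown because these close relatives differed in part in the cells where they were found. Klra4 and Klra8 were both in NK cells, and Klra4 was also in the cancer cell gate. The myeloid gate held 84.4% of the Klra2 counts and 60.7% of those of Klra17, whose level was highest in Siglech marked cells. Each line gives the 250 bases before the RefSeq start in GRCm38.p6, read 5′ to 3′ on the minus strand of chromosome 6. Capitals mark bases without an identical partner in the Klra4 sequence after alignment.
Klra4: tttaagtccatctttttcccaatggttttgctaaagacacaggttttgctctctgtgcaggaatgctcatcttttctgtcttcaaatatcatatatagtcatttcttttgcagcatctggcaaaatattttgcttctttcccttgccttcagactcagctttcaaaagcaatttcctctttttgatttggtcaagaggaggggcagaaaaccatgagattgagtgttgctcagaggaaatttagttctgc
Klra8: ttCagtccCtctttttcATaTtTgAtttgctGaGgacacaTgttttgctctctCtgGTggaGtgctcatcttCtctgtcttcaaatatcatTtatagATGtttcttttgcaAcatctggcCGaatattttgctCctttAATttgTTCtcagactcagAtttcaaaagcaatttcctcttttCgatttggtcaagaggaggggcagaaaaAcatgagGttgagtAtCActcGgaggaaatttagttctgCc
Klra17: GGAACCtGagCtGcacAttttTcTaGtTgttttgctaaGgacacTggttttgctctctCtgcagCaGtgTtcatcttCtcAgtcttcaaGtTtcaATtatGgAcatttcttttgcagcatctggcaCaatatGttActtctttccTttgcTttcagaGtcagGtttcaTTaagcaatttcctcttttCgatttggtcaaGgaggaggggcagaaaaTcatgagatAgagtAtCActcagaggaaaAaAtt
Klra2: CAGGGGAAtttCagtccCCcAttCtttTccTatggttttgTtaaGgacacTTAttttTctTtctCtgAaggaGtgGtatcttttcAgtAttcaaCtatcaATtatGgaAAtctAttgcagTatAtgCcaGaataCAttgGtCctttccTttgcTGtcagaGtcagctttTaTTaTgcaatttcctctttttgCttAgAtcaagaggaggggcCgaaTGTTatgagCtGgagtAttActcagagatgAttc
The windows were chr6:130067272-130067521 for Klra4, chr6:130129899-130130148 for Klra8, chr6:129876673-129876922 for Klra17 and chr6:131247363-131247612 for Klra2. Klra8 shared 84.5% of aligned positions with Klra4, the highest value of 253 pairs among the 23 Klr genes with an entry, whose median was 47.2%. Klra17 shared 79.4% and Klra2 71.3%. The letters TATAAA, read on either strand, were in 9 of the 23 Klr promoters, Klra8 included, and in 12.4% of 32851 promoters of the same length, but were not in the windows of Klra4, Klra17 or Klra2. Klrd1, Klrg1 and Klri2 had no entry.

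The 4 libraries held 57720774 to 111164731 UMIs (unique molecular identifiers, each standing for 1 captured RNA) in 15046 to 20393 barcodes, and 14014 to 18640 cells were kept at a median of 1674.5 to 2288 UMIs. Library pairs shared 277 to 392 barcode sequences. Cells were assigned by marker UMIs. The NK gate (Ncr1 without CD3 genes, Cd8a, Cd8b1 or Cd4) held only 37 cells in control, 16 with anti-PD-1, 9 with anti-LIF and 29 with combo, the order of every set of 4 values below. Its check markers Il2rb, Xcl1, Gzma, Prf1, Eomes and Txk were all present. A wider NK gate (Tyrobp with Gzma or Prf1 in place of Ncr1) held 176, 46, 27 and 79 cells and is given beside it. CD8 T cells numbered 4554, 1046, 458 and 578, and made up 24.4%, 7.27%, 3.27% and 3.53% of the kept cells. Myeloid cells made up 5.94%, 38.5%, 36.4% and 34.5%. CD4 T cells numbered 125 to 483, Foxp3 marked T cells (Treg) 119 to 245 and γδ T cells (Trdc) 66 to 173, and 1606 to 4381 cells met the cancer cell gate (Krt8 and Krt18 without Ptprc). RNA of other cells was in the gates in unequal amounts: Col1a1, a collagen gene of fibroblasts, stood at 2772, 1802, 12005 and 9123 CPM (a gene's UMIs per 1000000 UMIs of the gated cells) in CD8 T cells, and Jchain, a plasma cell gene, at 798, 1.75, 0 and 1438 CPM. Their part in the results was not tested.

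All 26 genes had UMIs, 50556 in the kept cells. Of these, 54.1% fell in the 6 immune gates, 9.61% in the cancer cell gate and 36.3% in cells of no gate, with 17.5% in cells with CD3 genes that met no T cell gate. Klrd1 (CD94) led with 13384 UMIs, followed by Klra4 with 7457, Klrb1b with 6512 and Klrk1 with 5804. The receptors differed by cell type: most Klra genes, Klrb1c, Klre1 and Klri2 had their highest median over the 4 libraries in NK cells, Klrc1 in CD8 T cells, Klrg1 in Treg cells, Klra2 in myeloid cells and Klra17 in Siglech marked cells. The other 11 members stayed below 50 UMIs over the 5 lymphoid gates. Klra10, Klra5, Klra6, Klrb1, Klrb1a, Klrb1f, Klrc3 and Klri1 had 1 to 255 UMIs in all cells and are not described singly. Klra2, Klra17 and Klrg2 were taken up after their values had been seen. Over the last 500 bases of their transcripts, where a 3′ kit reads, 16 members shared no stretch of 100 bases with another gene. The other 10 shared 0.644% to 17.1% of such stretches, Klrc1 with Klrc2 the most, and how far this altered their counts was not tested.

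**Figure D1:**
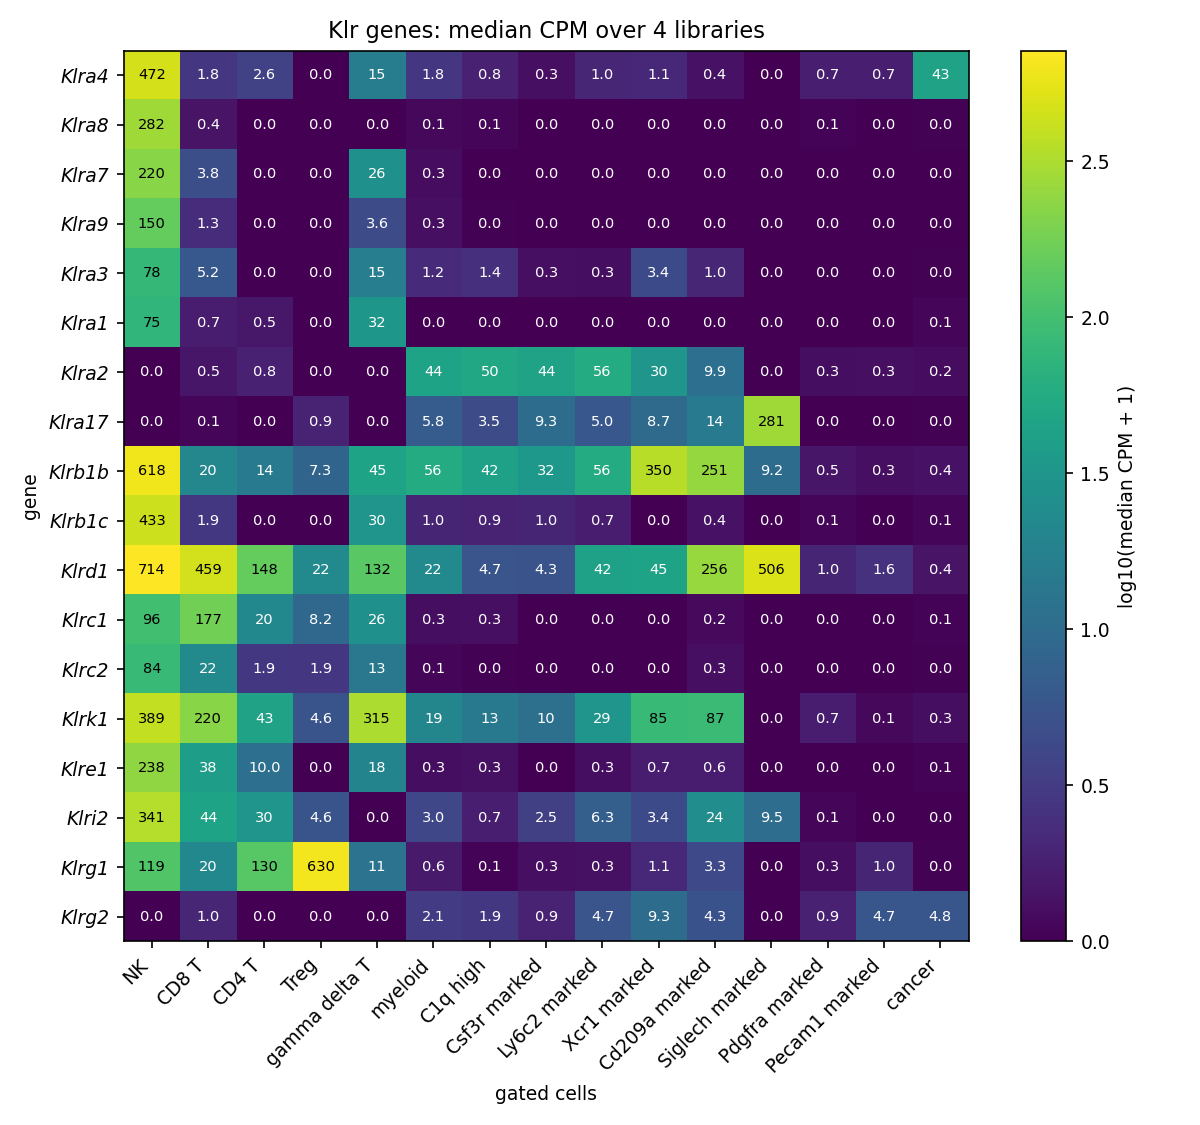
Heat map of 18 Klr genes (rows) in gated cells (columns). Each cell gives the median CPM of the 4 libraries, and the colour its log10 after adding 1; Klrd1 was at 714 CPM in NK cells and 459 in CD8 T cells, and Klra4 at 472 in NK cells and 43 in the cancer cell gate.

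The level given by free RNA was read in the cancer cell gate, which should lack most of these genes. There, where cells were deepest (median 4329.5 to 10915 UMIs against 1230.5 to 1653 in CD8 T cells), Klrd1 stood at 0.574, 0.449, 0.397 and 0.105 CPM, with a UMI in 0.108% to 0.639% of cells. Klrk1 was at 0.157 to 0.364 CPM there and Klrc1 at 0 to 0.0793 CPM. The levels of Klrd1, Klrk1 and Klrc1 in CD8 T and NK cells were far above those of this gate. Cells with a UMI of Ptprc, Ncr1 or a CD3 gene are left out of it, so it can understate free RNA. The part of this, and of the greater depth, was not tested.

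Klra genes encode the Ly49 receptors, of which Klra4 (Ly49D) and Klra8 (Ly49H) are activating and signal through Tyrobp, and Klra1, Klra3, Klra7 and Klra9 (Ly49A, C, G and I) are inhibitory receptors for MHC class I. In NK cells, Klra4 had 5, 49, 9 and 40 UMIs, or 63.2 [20.5, 147], 1364 [1009, 1804], 303 [139, 575] and 640 [457, 872] CPM. Control was lowest, and its interval did not reach those of anti-PD-1 or combo. In the wider NK gate the order was the same over a narrower range, with 486 [412, 570], 1478 [1196, 1807], 713 [512, 968] and 1025 [865, 1207] CPM. The log2 ratio of anti-PD-1 to control for Klra4 was therefore 4.31 [3.11, 6.12] in the first gate but 1.61 [1.22, 1.98] in the wider one, and that of combo 3.22 [2.00, 5.04] and 1.08 [0.74, 1.42]. The 10 cells with the most Klra4 UMIs held 95% to 100% of them in the Ncr1 gate of each library, where only 2, 6, 1 and 12 cells had one. Beside this, Gzma stood at 1554, 5541, 337 and 4449 CPM and Col1a1 at 341, 8799, 202 and 608 CPM in the Ncr1 gate, and their part in the result was not tested.

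Klra8 had 16, 13, 4 and 41 UMIs in NK cells, or 202 [116, 328], 362 [193, 619], 135 [36.7, 345] and 656 [471, 890] CPM. Combo was the highest, also in the wider gate at 854 [708, 1022] CPM against 284 to 436 in the other libraries. Klra7 had 4, 11, 4 and 23 UMIs in the Ncr1 gate, or 50.5 to 368 CPM, with control lowest. Klra9 had 15, 4, 1 and 14 UMIs, Klra3 6, 5, 1 and 5, and Klra1 8, 0, 6 and 3, too few to order the libraries. Ly49 genes are known for being switched on in different combinations from cell to cell. Of the 91 NK cells, 54 had a UMI of at least 1 Klra gene: 24 had 1, 15 had 2 and 15 had 3 or more, with 5 as the highest. In the wider gate, 239 of 328 cells had one.

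Klrb1c (NK1.1, an activating receptor) had 17, 19, 10 and 35 UMIs in NK cells, or 215 [125, 344], 529 [319, 826], 337 [161, 619] and 560 [390, 779] CPM. Its log2 ratio to control was 1.30 [0.28, 2.34] in anti-PD-1 and 1.36 [0.51, 2.31] in combo, and 1.32 and 1.43 in the wider gate. Klrb1b, an inhibitory receptor for Clec2d, had its highest value in control in the Ncr1 gate, at 947 [745, 1187], 724 [473, 1061], 505 [283, 833] and 512 [350, 723] CPM. Control was no longer the highest in the wider gate, where Klrb1b was at 492, 778, 313 and 463 CPM. Klrd1, which forms a dimer with NKG2 proteins for the ligand H2-T23 (Qa-1), was at 846, 585, 707 and 720 CPM with overlapping intervals. Klrk1 (NKG2D, the activating receptor for Raet1, H60 and Ulbp1 proteins) lay at 334 to 438 CPM, and the partners Klre1 and Klri2 at 176 to 251 and 256 to 418 CPM. For these genes the intervals of the 4 libraries overlapped in the Ncr1 gate. In the wider gate Klrk1 and Klre1 were past 2-fold higher than control in all 3 comparisons, and Klri2 with anti-PD-1 only. Klrd1 was past 2-fold in none.

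In NK cells 8 members had at least 20 UMIs over anti-PD-1 and control; 2 of them, Klra4 and Klrb1c, were past 2-fold higher (8.65% of all 890 genes measured) and 0 lower (9.78%), with a median log2 ratio of 0.13 against -0.11 for all genes. For anti-LIF, 0 of 7 were past 2-fold higher (background 10.3%) and 0 lower (10.9%), with medians of -0.24 and 0.03. For combo, 4 of 11 were higher (8.58%), namely Klra4, Klra7, Klra8 and Klrb1c, and 0 lower (5.84%), with a median of 0.25 against 0.05. All 4 members higher in combo reached 20 UMIs through combo alone. Klra4, Klra7, Klra8 and Klrb1c had 40, 23, 41 and 35 there, against 5, 4, 16 and 17 for control. With anti-PD-1, Klra4 passed the limit through that library alone (49 against 5), and Klrb1c over both libraries (19 against 17). Klra7 fell short of that limit with anti-PD-1 (11 against 4), although its level was 306 against 50.5 CPM. Klrb1b, Klrd1, Klri2 and Klrk1 passed it through control already, with 30 to 75 UMIs. The part of this limit in the counts of higher members was not tested. In the wider gate, 9 of 14 members were past 2-fold higher with anti-PD-1 (10.7% of all genes), 4 of 14 with anti-LIF (9.21%) and 7 of 15 with combo (8.44%), and 0 were lower (12.6%, 13.9% and 7.97%). Those of anti-PD-1 were Klra3, Klra4, Klra7, Klrb1a, Klrb1c, Klrc2, Klre1, Klri2 and Klrk1. Those of anti-LIF were Klrc1, Klre1, Klrg1 and Klrk1, and those of combo Klra4, Klra8, Klra9, Klrb1a, Klrb1c, Klre1 and Klrk1. The medians of the measured members were 1.15, 0.71 and 0.98, against 0.05, 0.06 and 0.08 for all genes. The 3 ratios share the control library. Summed over all 26 genes, the log2 ratios of the 3 treated libraries to control were 0.48 [0.22, 0.74], -0.02 [-0.34, 0.28] and 0.40 [0.17, 0.62], and 1.04, 0.56 and 0.94 in the wider gate. Without the 10 cells richest in the genes read, 6 cells are left in anti-PD-1 and 27 in control. The anti-PD-1 ratio was then -0.36 for all 26 genes, and no UMI of a Klra gene or of Klrb1c was left in anti-PD-1 to compare.

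The signalling partners followed cell type. Tyrobp was at 1179 to 1952 CPM in NK cells and at 23.8 to 49.1 in CD8 T cells, and Fcer1g at 1212 to 1810 and 29.2 to 69.0 CPM. Hcst, the partner of Klrk1, was at a like level in both, 168 to 306 and 206 to 284 CPM. Of the 10 adaptor and signalling genes listed, 9 were measured in CD8 T cells: in the 3 comparisons with control 0 were past 2-fold higher (5.97%, 11.6% and 8.94% of all genes) and 0, 1 (Fcer1g) and 0 lower (7.91%, 7.13% and 6.43%). In NK cells 0 of the 3, 3 and 4 measured were past 2-fold of control. Of all genes there, 8.65%, 10.3% and 8.58% were higher and 9.78%, 10.9% and 5.84% lower. In myeloid cells 0 of 8 were past 2-fold (7.89%, 10.7% and 12.2% of all genes higher, 5.01%, 6.71% and 7.22% lower). In CD4 T cells 0 of 8 were higher, against 7.98%, 7.33% and 10.7% of all genes. There 0, 1 (Fcer1g) and 2 (Tyrobp, Sh2d1a) were lower, against 5.03%, 5.26% and 6.01%. In Treg cells 1 (Fcer1g), 3 (Tyrobp, Fcer1g, Ptpn6) and 1 (Fcer1g) of 7 were higher, against 6.92%, 7.04% and 6.83% of all genes. There 0, 0 and 1 (Ptpn11) were lower, against 4.3%, 4.7% and 3.65%.

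In CD8 T cells the family was led by the CD94 and NKG2 group. Klrd1 stood at 436 [424, 449], 637 [600, 676], 434 [393, 479] and 482 [443, 523] CPM, from 4842, 1089, 401 and 576 UMIs. Anti-PD-1 was the highest, with an interval above those of the other 3 libraries, which overlapped at least in part. Klrc1 (NKG2A, the inhibitory partner of CD94) had 1181, 400, 157 and 220 UMIs, or 106 [100, 113], 234 [212, 258], 170 [145, 199] and 184 [161, 210] CPM. Control was the lowest, with an interval below those of the other 3 libraries. The log2 ratios of Klrc1 in the treated libraries to control were 1.14 [0.97, 1.30], 0.68 [0.43, 0.92] and 0.79 [0.58, 1.00]. With every cell thinned to 1000 UMIs, Klrc1 was found in 11.8%, 20.4%, 17.01% and 20.9% of CD8 T cells; unthinned it was in 20.7%, 28.5%, 26.9% and 29.4%.

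Klrk1 was likewise lowest in control CD8 T cells, at 127 [121, 134], 222 [200, 245], 272 [239, 308] and 218 [193, 247] CPM, and highest in anti-LIF (log2 ratio 1.10 [0.90, 1.29]). Thinned, it was in 13.2%, 20.3%, 29.2% and 18.6% of cells, and unthinned in 22.8%, 24.7%, 33.8% and 28.2%. Klrc2 (NKG2C, the activating partner of CD94) was at 18.2 to 25.1 CPM with overlapping intervals. Summed over the group, the log2 ratios of the treated libraries to control were 0.70 [0.62, 0.77], 0.38 [0.28, 0.49] and 0.40 [0.31, 0.49].

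The other receptor groups did not share this order. Klre1, which pairs with Klri proteins, was highest in control at 59.2 [54.8, 63.9] CPM and stood at 35.7 [27.3, 45.8], 22.7 [14.1, 34.8] and 39.3 [28.9, 52.3] in the treated libraries. Klri2, with which Klre1 forms an activating dimer, was at 53.5 [49.3, 58.0], 20.5 [14.3, 28.5], 65.0 [49.6, 83.7] and 35.1 [25.3, 47.5] CPM, with anti-PD-1 lowest. In the treated libraries the 10 top cells held 45% to 85.7% of the UMIs of Klre1 and Klri2. Klra3 had 274, 12, 0 and 4 UMIs, or 24.7 [21.9, 27.8], 7.02 [3.63, 12.3], 0 [0, 3.996] and 3.35 [0.912, 8.57] CPM. Against 3 counts in place of 0, Klra3 was at least 7.60-fold lower in anti-LIF than in control. Klrb1b had 427, 59, 5 and 5 UMIs, or 38.5 [34.9, 42.3], 34.5 [26.3, 44.5], 5.42 [1.76, 12.6] and 4.18 [1.36, 9.76] CPM. Yet the 10 top cells held 93.2% of the Klrb1b UMIs of anti-PD-1, and thinned cells with a UMI were 1.71% [1.32, 2.17], 0.730% [0.237, 1.69], 1.39% [0.380, 3.52] and 0.455% [0.0551, 1.63], with overlapping intervals; unthinned they were 3.05%, 1.34%, 1.09% and 0.865%. In all 4 libraries together, Klrb1b was in 11.7% [7.08, 17.8] of thinned CD8 T cells with a Tyrobp UMI and in 1.15% [0.877, 1.48] of those without.

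**Figure D2:**
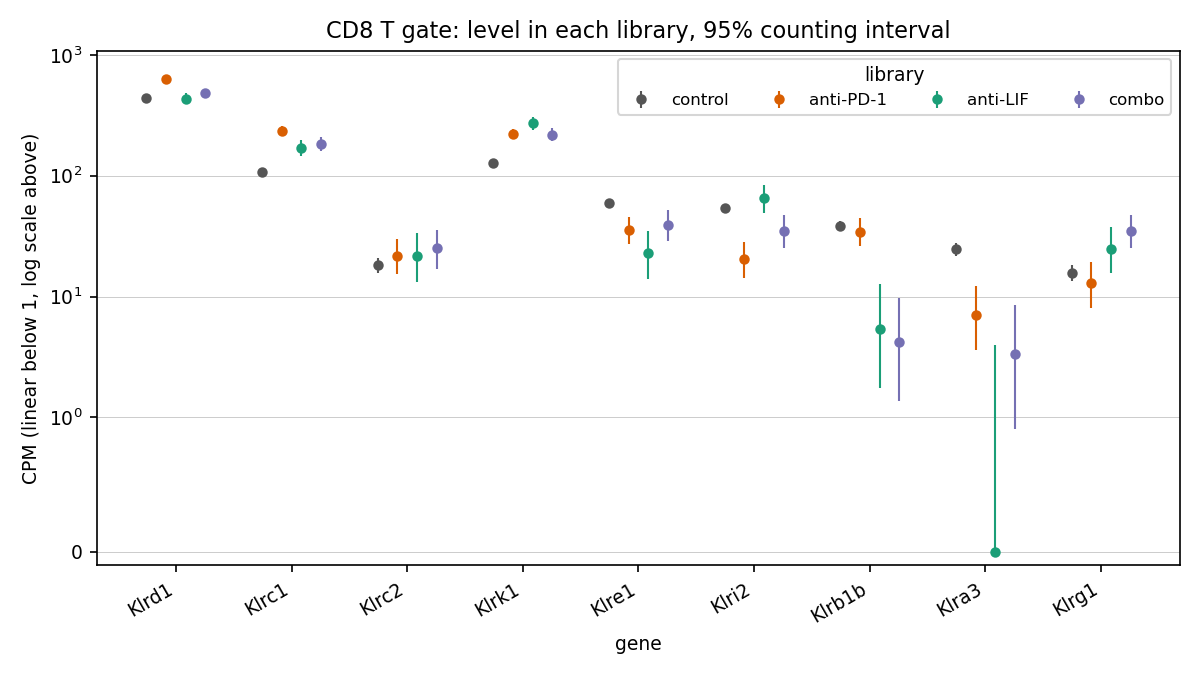
Level of 9 Klr genes (x axis) in the CD8 T gate of each library, in CPM on a log scale that is linear below 1. Points are libraries and bars 95% counting intervals; Klrc1 and Klrk1 were lowest in control, and Klra3 and Klre1 highest in control.

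Among 15 members measured in CD8 T cells, 2 were past 2-fold higher in anti-PD-1 than in control (Klrc1, Klra6; 5.97% of 11790 genes) and 4 lower (Klra3, Klra4, Klri2, Klrg2; 7.91%), with a median log2 ratio of -0.25 against 0.05 for all genes. In anti-LIF, 1 was higher (Klrk1; 11.6%) and 7 lower (Klra3, Klra6, Klra7, Klra9, Klrb1b, Klre1, Klrg2; 7.13%), with medians of -0.85 and 0.07. In combo, 3 were higher (Klra6, Klrb1c, Klrg1; 8.94%) and 4 lower (Klra3, Klra9, Klrb1b, Klrg2; 6.43%), with a median of -0.0003 against 0.08. Several of these rest on few UMIs: Klra6 had 20, 6, 0 and 4. The CD8 T gate held 11096358 UMIs in control against 1709660, 923165 and 1195240 in the treated libraries. Members could therefore be measured through control alone, as Klra6 was against anti-LIF. The part of this in the counts of lower members and in the medians was not tested. The summed Klra level had log2 ratios to control of -0.97 [-1.51, -0.50], -3.14 [-5.19, -1.94] and -1.19 [-1.91, -0.60]. In thinned cells, a Klra gene was found in 3.34%, 1.02%, 0.694% and 1.82% of CD8 T cells; unthinned, 4264 of 4554, 1027 of 1046, 455 of 458 and 564 of 578 cells had none. The summed Klrb1 level gave -0.19 [-0.59, 0.18], -2.09 [-3.30, -1.22] and -1.95 [-2.92, -1.22]; in thinned cells the last pair was -0.22 and -0.62.

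Partner genes were then read in the same cells, 5281 thinned CD8 T cells of the 4 libraries together, of which control gave 3868. The part of differences between libraries in these pooled shares was not tested. Klrc1 was in 17.01% [15.4, 18.7] of cells with a Klrd1 UMI and in 12.1% [11.0, 13.3] of those without. Klre1 was in 13.8% [9.60, 19.1] of cells with Klri2 and in 4.13% [3.60, 4.72] of those without. For Klrk1 and its adaptor Hcst the shares overlapped, 16.2% [14.2, 18.4] and 15.2% [14.1, 16.3]. Among cells with a UMI of Pdcd1, which encodes PD-1, Klrd1 was in 43.2% [39.9, 46.6] against 36.4% [35.0, 37.8] of the rest, and Klrc1 in 16.5% [14.1, 19.1] against 13.5% [12.5, 14.5], with overlapping intervals for Klrc1.

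In CD4 T cells, Klrd1 had 231, 97, 19 and 28 UMIs, or 243 [213, 276], 352 [285, 429], 53.8 [32.4, 84.1] and 46.5 [30.9, 67.2] CPM. The libraries formed a high pair, control and anti-PD-1, and a low pair with anti-LIF antibody. Klri2 had 46, 14, 4 and 5 UMIs, or 48.4 [35.4, 64.5], 50.8 [27.8, 85.2], 11.3 [3.09, 29.0] and 8.30 [2.70, 19.4] CPM. Its values were ordered alike, but the intervals of anti-PD-1 and anti-LIF overlapped. In the treated libraries only 5, 2 and 3 cells had a Klri2 UMI. Thinned, Klrd1 was in 15.2%, 19.8%, 7.69% and 6.93% of cells, and unthinned in 21.7%, 25.6%, 7.61% and 8.44%. Without the 10 top cells, the log2 ratio of Klrd1 in anti-PD-1 to control went from 0.54 to -0.31. That left out 10 of 125 cells in anti-PD-1 but 10 of 483 in control, and the part of these unequal shares was not tested. In the same gate Eomes, a transcription factor of cytotoxic cells, was at 92.5, 181, 125 and 16.6 CPM, Ccl5 at 1584, 1664, 1029 and 316, and Cd40lg, a helper T cell gene, at 12.6, 21.8, 31.2 and 21.6. Their part was not tested. Past 2-fold against control, 2 of 7 members were higher in anti-PD-1 (Klrb1b, Klrg1; background 7.98%) and 0 lower (5.03%). In anti-LIF 1 of 5 was higher (Klrg1; 7.33%) and 2 lower (Klrd1, Klri2; 5.26%), and in combo 1 of 6 was higher (Klrg1; 10.7%) and 3 lower (Klrc1, Klrd1, Klri2; 6.01%). The median log2 ratios of these members were 0.41, -0.59 and -1.44, against 0.12, 0.02 and -0.01 for all genes.

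Klrg1 is an inhibitory receptor for cadherins such as E-cadherin (Cdh1) and marks differentiated effector and regulatory T cells. Of its 2992 UMIs, 35.2% were in Treg cells and 8.69% in CD8 T cells. Cells of no gate held 45.3%, with 33.5% in cells with CD3 genes that met no T cell gate. In Treg cells Klrg1 had 271, 139, 172 and 472 UMIs, or 503 [445, 566], 621 [522, 733], 638 [547, 741] and 810 [739, 887] CPM. Combo was the highest, with a log2 ratio to control of 0.69 [0.47, 0.91], to anti-PD-1 of 0.38 [0.11, 0.67] and to anti-LIF of 0.34 [0.09, 0.60]. Thinned, Klrg1 was in 27.7% [21.1, 35.2], 46.8% [35.3, 58.5], 36.5% [26.3, 47.6] and 43.4% [36.4, 50.6] of Treg cells, so by share of cells control had the lowest value, its interval overlapped that of anti-LIF, and the treated libraries overlapped each other; unthinned the shares were 40.5%, 48.7%, 48.0% and 58.4%. Jchain was at 5061 CPM in the control Treg gate and at 0 in the others, and its part was not tested. Klrd1 had 15, 4, 7 and 1 UMIs in Treg cells. None of the members measured in Treg cells (1, 2 and 1 genes) was past 2-fold of control in either direction (background 6.92% higher and 4.3% lower with anti-PD-1, 7.04% and 4.7% with anti-LIF, 6.83% and 3.65% with combo).

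In CD4 T cells Klrg1 was at 64.1 [49.1, 82.4], 131 [91.4, 181], 176 [135, 225] and 130 [102, 162] CPM, with control lowest. The 10 top cells held 57.4% to 66.7% of its UMIs. Thinned, Klrg1 was in 3.74% [2.11, 6.09], 7.69% [3.15, 15.2], 7.69% [3.75, 13.7] and 8.91% [5.37, 13.7] of CD4 T cells, with overlapping intervals. Unthinned, it was in 7.04%, 17.6%, 14.2% and 12.7%. In CD8 T cells it was at 15.6 [13.4, 18.1], 12.9 [8.06, 19.5], 24.9 [15.8, 37.4] and 35.1 [25.3, 47.5] CPM, with combo highest. Without the 10 top cells the log2 ratio of combo to control was 0.26 in place of 1.19. That left out 10 of 578 cells in combo but 10 of 4554 in control, and the part of these unequal shares was not tested. The 4 NK values, 126, 111, 101 and 256 CPM, overlapped.

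**Figure D3:**
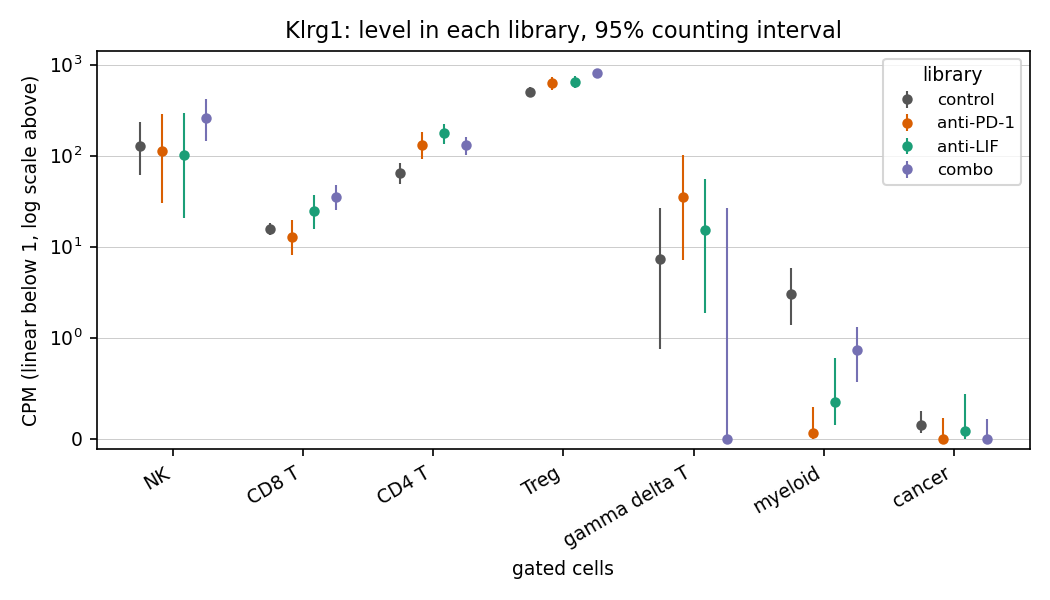
Klrg1 level (y axis, CPM, log scale above 1 and linear below) in 7 gates (x axis) of each library. Points are libraries and bars 95% counting intervals; Treg cells held the highest levels, 503 to 810 CPM.

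The γδ T gate was marked by Cd163l1 (739 to 1279 CPM) and Il17a (355 to 965 CPM), genes of interleukin-17 producing γδ T cells. Klrk1 had 56, 26, 43 and 65 UMIs there, or 205 [155, 266], 302 [197, 443], 328 [237, 441] and 469 [362, 597] CPM. Combo was above control by 1.19 [0.66, 1.74] on the log2 scale, while the single antibodies lay between them. Klrd1 was at 208 [158, 270], 105 [47.8, 199], 60.9 [26.3, 120] and 159 [99.4, 240] CPM, with control highest. Beside it Jchain stood at 2914, 11.6, 0 and 14.4 CPM, Tyrobp at 175, 69.7, 68.6 and 86.5 and Fcer1g at 344, 128, 83.8 and 115 CPM, all highest in control, and their part was not tested. Tyrobp with anti-PD-1 and anti-LIF, and Fcer1g in all 3 comparisons, were past 2-fold lower than in control, the only ones of the 4, 5 and 5 adaptor genes measured to be past 2-fold. Of the members measured, 0 of 2 were past 2-fold in anti-PD-1 (9.92% higher and 7.61% lower in the background), 1 of 2 was lower in anti-LIF (Klrd1; 10.6% higher and 5.49% lower) and 1 of 4 higher in combo (Klrk1; 9.82% higher and 5.02% lower).

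In myeloid cells the family was led by Klrb1b and Klra2 (Ly49B, an inhibitory Ly49 receptor of myeloid cells). Klra2 had 84.4% of its 2724 UMIs in that gate and 10 UMIs in the 5 lymphoid gates. It had 203, 1031, 482 and 584 UMIs, or 68.5 [59.4, 78.6], 58.5 [54.9, 62.1], 29.6 [27.0, 32.4] and 22.3 [20.5, 24.2] CPM. Both libraries with anti-LIF antibody were low. Klrb1b was at 103 [91.4, 115], 57.0 [53.5, 60.6], 55.9 [52.3, 59.6] and 45.9 [43.3, 48.5] CPM, with control alone high. Past 2-fold against control in myeloid cells, 0 of 9 members were higher (background 7.89%) and 2 lower in anti-PD-1 (Klrg2, Klri2; 5.01%). In anti-LIF 1 of 10 was higher (Klrb1a; 10.7%) and 4 lower (Klra17, Klra2, Klra4, Klrg2; 6.71%). In combo 2 of 14 were higher (Klra8, Klrb1a; 12.2%) and 5 lower (Klra17, Klra2, Klrb1b, Klrg1, Klrg2; 7.22%). Some of these calls rest on few cells: control had 17 UMIs of Klri2, 8 of Klra4, 9 of Klrg1 and 0 of Klra8, none of them outside its 10 richest cells, while 26 Klri2 UMIs remained in anti-PD-1, 11 Klra4 UMIs in anti-LIF and 5 Klrg1 UMIs in combo. Leaving out those cells was therefore bound to leave 0 UMIs in control. The 3 ratios to control, then above 0 instead of below it, give no direction or size of a difference. All 23 Klra8 UMIs of combo lay in its 10 richest cells. The median log2 ratio was -0.69, -0.92 and -0.86 against 0.12, 0.10 and 0.12 for all genes.

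The myeloid gate mixes cells in proportions that differ between libraries, so smaller groups were read by markers chosen after the data were seen. In cells with at least 3 C1qa and C1qb UMIs and no dendritic or neutrophil marker (C1q high; 331, 2651, 2673 and 2898 cells; C1q is a macrophage product), Klra2 was at 102 [84.4, 123], 68.1 [62.6, 74.1], 31.5 [27.8, 35.5] and 25.3 [22.7, 28.2] CPM. The order of the whole gate therefore held, with a log2 ratio to control of -2.02 [-2.33, -1.69] in combo, and thinned shares of 13.7%, 6.64%, 3.20% and 2.85% (unthinned 26.6%, 15.8%, 8.19% and 8.45%). Klrb1b had the same order in these cells, at 75.4, 46.8, 38.0 and 29.5 CPM.

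Klrb1b was higher in cells marked by Xcr1 or Clec9a, genes of cross-presenting dendritic cells, at 523 [472, 578], 335 [295, 379], 365 [310, 426] and 325 [285, 369] CPM, with control highest. Thinned, 37.2% [29.4, 45.5], 24.4% [17.2, 32.8], 28.9% [19.5, 39.9] and 22.1% [14.6, 31.3] of these cells had a Klrb1b UMI, with overlapping intervals, and unthinned 67.5%, 54.5%, 54.3% and 60.7%. In cells with Cd209a, a gene of other dendritic cells, it was at 272 [205, 354], 329 [289, 373], 230 [206, 255] and 181 [165, 197] CPM. Klrd1 was present in Cd209a marked cells too, at 307 [235, 393], 336 [295, 380], 206 [184, 230] and 144 [130, 158] CPM, while its NKG2 partner Klrc1 had 0, 1, 0 and 1 UMIs there. Klrk1 lay at 80.4 to 115 CPM in Xcr1 or Clec9a marked cells.

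Siglech, a gene of plasmacytoid dendritic cells, marked only 15, 18, 11 and 12 cells. In them Klrd1 reached 498 [285, 809], 476 [311, 697], 514 [274, 880] and 587 [399, 834] CPM, and Klra17 (Ly49Q, an inhibitory receptor of plasmacytoid dendritic cells) 311 [149, 572], 165 [75.3, 313], 277 [111, 571] and 284 [159, 469] CPM, from 10, 9, 7 and 15 UMIs. The libraries overlapped for both genes. Klrk1 had 1 UMI in these cells. In the myeloid gate as a whole, Klra17 went from 17.2 [12.8, 22.6] and 8.85 [7.51, 10.3] CPM in control and anti-PD-1 to 2.70 [1.96, 3.63] and 1.87 [1.38, 2.47] in anti-LIF and combo. C1q high cells showed the same steps, at 13.5, 5.68, 1.42 and 1.32 CPM.

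**Figure D4:**
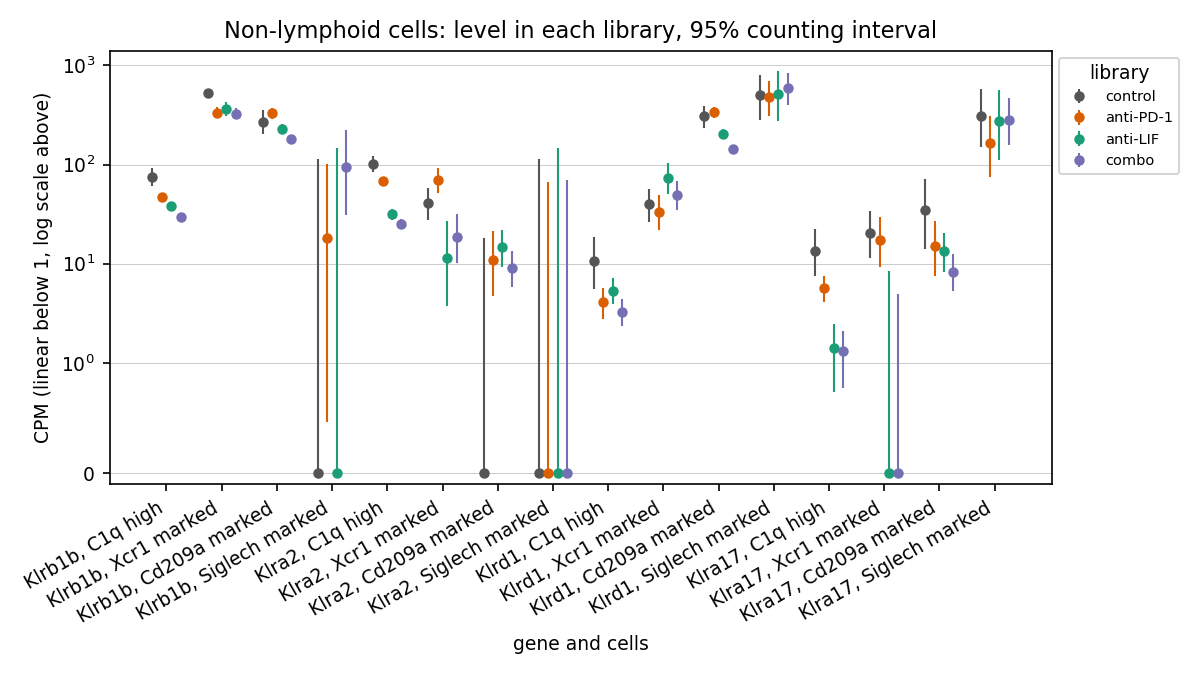
Level of Klrb1b, Klra2, Klrd1 and Klra17 (x axis, by marked group) in C1q high, Xcr1 or Clec9a, Cd209a and Siglech marked cells of each library, in CPM on a log scale that is linear below 1. Points are libraries and bars 95% counting intervals; Klra2 in C1q high cells went from 102 CPM in control to 25.3 in combo.

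Klra4 was the leading Ly49 gene of the cancer cell gate, which held 53.9% of its 7457 UMIs. It had 1178, 654, 1246 and 943 UMIs there, or 22.6 [21.3, 23.9], 36.7 [33.9, 39.6], 98.9 [93.4, 105] and 49.4 [46.3, 52.7] CPM, and 14.6%, 19.6%, 30.1% and 22.6% of cells had a UMI. Anti-LIF was the highest and control the lowest, and no intervals overlapped. The log2 ratios of the treated libraries to control were 0.70 [0.56, 0.84], 2.13 [2.02, 2.25] and 1.13 [1.01, 1.26], where the median of all genes was 0.18, 0.25 and 0.21. Among cells of at most 10% mitochondrial UMIs they were 0.06, 1.51 and 0.11, so the anti-LIF value alone stayed past 2-fold. Adaptor genes of leukocytes differed in the same gate: Tyrobp was at 2.49, 8.75, 6.51 and 8.33 and Fcer1g at 1.99, 12.3, 9.92 and 11.9 CPM, and with Syk they were past 2-fold higher than control in every treated library (3, 3 and 4 of 7 adaptor genes measured, against 6.3%, 12.4% and 11.3% of all genes). Hcst was past 2-fold lower with anti-LIF and combo (4.76% and 4.47% of all genes lower). Their part in the Klra4 values was not tested. In the myeloid gate, where Tyrobp stood at 1253 to 1882 CPM, Klra4 was at 1.35 to 2.70 CPM. Thinned to 1000 UMIs, 2.10% [1.69, 2.58], 3.56% [2.72, 4.55], 7.90% [6.53, 9.44] and 4.69% [3.72, 5.82] of the cells had a Klra4 UMI.

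The other Ly49 genes were at 0 to 7 UMIs in the cancer cell gate of each library. Klra8 had 4, 1, 0 and 0 UMIs there, so it made up 0.338% [0.0923, 0.864], 0.153% [0.00387, 0.848], 0% [0, 0.296] and 0% [0, 0.390] of the UMIs of the 2 genes. In NK cells it made up 76.2% [52.8, 91.8], 21.0% [11.7, 33.2], 30.8% [9.09, 61.4] and 50.6% [39.3, 61.9], and in the wider NK gate 36.9%, 22.8%, 34.9% and 45.5%. Klrd1, with 21 to 67 UMIs in the NK gate of each library, had 30, 8, 5 and 2 in the cancer cell gate, where Klra4 had 654 to 1246. Fibroblast gene marked cells (Pdgfra, Dcn or Dpt) had Klra4 at 0 to 0.831 CPM. Cells of no gate held 42.5% of the Klra4 UMIs, at 19.9 to 31.3 CPM.

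Within the cancer cell gate Klra4 was higher in dividing cells, those with a UMI of Mki67 or Top2a: 31.9 [29.8, 34.0], 45.8 [41.9, 49.9], 120 [112, 127] and 64.9 [60.5, 69.5] CPM, against 11.4 [10.1, 12.9], 21.6 [18.2, 25.4], 53.1 [46.1, 60.8] and 20.5 [17.2, 24.2] in the rest. The dividing cells were deeper in every library (median 7222 to 13706 against 2611 to 9329.5 UMIs). Thinned to one depth, 3.05%, 4.01%, 10.1% and 6.75% of dividing cells had a Klra4 UMI, against 1.33%, 3.13%, 5.32% and 2.48% of the rest; the intervals overlapped only with anti-PD-1.

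**Figure D5:**
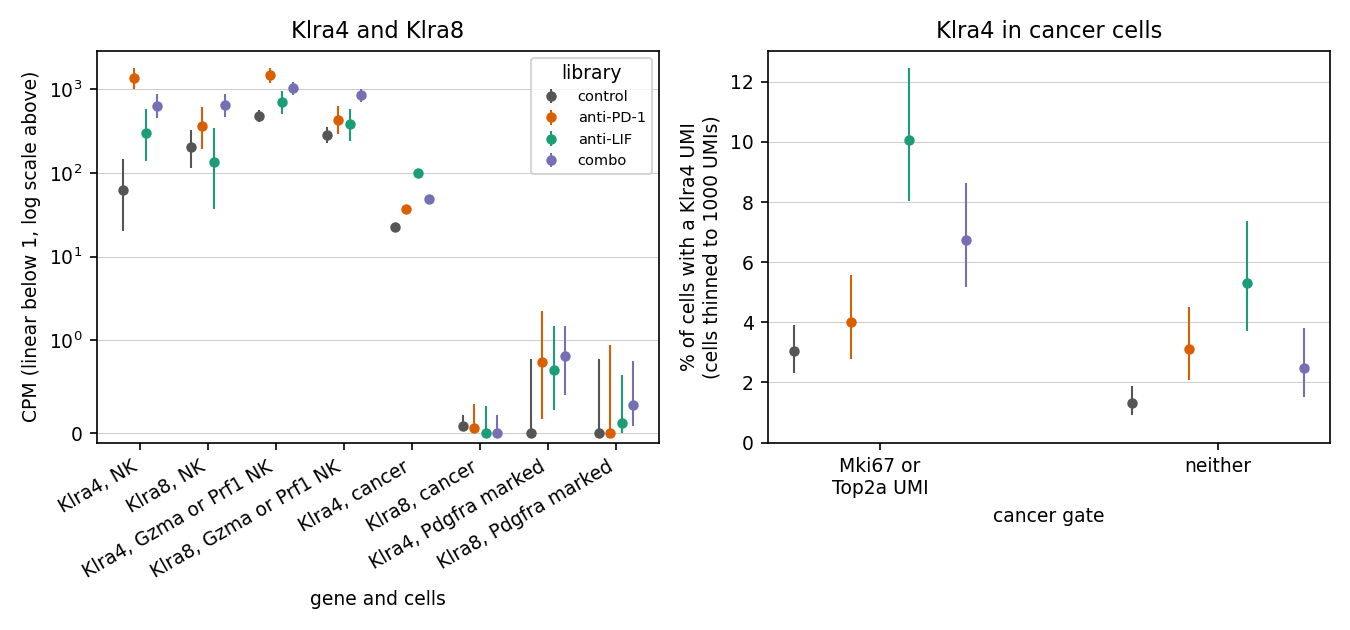
Left, Klra4 and Klra8 level in CPM (log scale above 1, linear below) in 4 cell gates of each library; right, percent of cancer cell gate cells with a Klra4 UMI after thinning to 1000 UMIs, by Mki67 or Top2a. Points are libraries and bars 95% counting intervals; Klra4 was at 22.6 to 98.9 CPM in the cancer cell gate, where Klra8 had 0 to 4 UMIs.

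Klrg2, a relative of Klrg1 outside the NK gene complex, was the other member of the cancer cell gate, with 404, 64, 67 and 82 UMIs, or 7.74 [7.00, 8.53], 3.59 [2.76, 4.58], 5.32 [4.12, 6.75] and 4.30 [3.42, 5.33] CPM. Control was the highest. Past 2-fold against control in this gate, 0 of 5 members were higher in anti-PD-1 (6.3% of all genes) and 1 lower (Klrg2; 2.82%). In anti-LIF 2 of 5 were higher (Klra4, Klrb1b; 12.4%) and 0 lower (4.76%), and in combo 1 of 4 was higher (Klra4; 11.3%) and 2 lower (Klrd1, Klrk1; 4.47%). Klrb1b, Klrd1 and Klrk1 had 2 to 30 UMIs per library in these cells.

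The ligands of these receptors were read in the same cancer cells. H2-D1, H2-K1 and H2-T23, ligands of Ly49 receptors and of CD94 with NKG2A, stood highest in control. H2-T23 was at 806, 514, 346 and 314 CPM, with log2 ratios to control of -0.65 [-0.68, -0.62], -1.22 [-1.27, -1.17] and -1.36 [-1.40, -1.32]. H2-D1 was at 3678, 2323, 1482 and 1282 CPM and H2-K1 at 3568, 2107, 1239 and 1111. The Klrk1 ligands Raet1e, at 63.6 to 75.5 CPM, and Ulbp1, at 20.4, 36.1, 36.1 and 26.4 CPM, did not share this order. Cdh1, the ligand of Klrg1, was at 42.6, 27.6, 61.3 and 50.9 CPM. Of the 15 listed ligands, 9 were measured in the cancer cell gate; with anti-PD-1 0 were past 2-fold (6.3% of all genes higher and 2.82% lower), with anti-LIF 1 (Cdh2) was higher (12.4% of all genes) and 3 (H2-T23, H2-D1, H2-K1) lower (4.76%), and with combo 0 were higher (11.3%) and the same 3 lower (4.47%). The median log2 ratio of the measured ligands was 0.09, 0.24 and 0.07, against 0.18, 0.25 and 0.21 for all genes. Clec2g, Clec2h, H60b, H60c and Cdh4 had 0 UMIs in these cells.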

How the data were processed

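Single cells of 4 libraries, 1 per group and each of 3 combined samples, were analysed from the deposited count matrices: whole-number UMI counts per gene and barcode, as the values show. Per the labels, a 3′ SeekOne MM kit was used, and nothing says the 3 samples can be told apart. The deposited gene and barcode lists hold other content (identifiers and symbols). The submitters' processing notes name mm10 and Seurat 4.0.3 without a role; the aligner and the counter are not given in the sources used here.

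Kept cells had 200 genes or more and no more than 20% mitochondrial UMIs. Gates used 1 UMI of the defining markers; the T and NK gates left out cells with 3 or more of 10 myeloid genes or 3 or more Krt8 and Krt18 UMIs. Myeloid cells had at least 3 of those genes, without CD3 genes or Ncr1. No doublet caller was run; cells with markers of different classes met no gate or were removed by these limits, and other doublets remain. UMIs were summed per gate and library and given as CPM with exact Poisson 95% intervals. Shares carry exact Clopper-Pearson intervals, and ratios exact conditional ones, with 0.5 counts added for log2 ratios. All intervals are of counting error and leave out variation among animals; no p-value was computed. A gene was measured in a comparison if it had at least 20 UMIs over both libraries, and past 2-fold is a size limit, not a test. A gene could reach 20 UMIs through 1 library alone, also one where it was high. The part of this in the counts past 2-fold was not tested. For shares of cells, each cell was also thinned to 1000 UMIs and shallower cells left out (15173, 9892, 9531 and 12100 cells of the 4 libraries remained).

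Named in full were genes with at least 50 UMIs over the 5 lymphoid gates, per class from 20 UMIs. The members, gates and gene lists were chosen with earlier results of these data known; the smaller myeloid and stromal groups and the split by Mki67 or Top2a were added after the data were seen. Positions came from GENCODE M21 (GRCm38), which held all 26 genes. The scripts were tested on simulated data. Python 3.11.15, numpy 2.4.6, scipy 1.17.1, pandas 2.3.3, matplotlib 3.10.9 and biopython 1.88 were used. The alternatives were gates at 2 UMIs, at most 10% mitochondrial UMIs, no exclusion by myeloid or keratin UMIs, the wider NK gate, thinning, the mean over cells, re-centring on the median gene, leaving out the 10 top cells, and 1 count added.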

Additional observations from a re-analysis of the deposited data

Results flagged for a closer look

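Klrg1 moved in opposite directions in combo against control: its log2 ratio was 1.01 in CD4 T cells and 1.19 in CD8 T cells, but -1.84 in myeloid cells. The difference between these cell types was not tested, since each group was 1 library. In myeloid cells Klrg1 had 9 UMIs in 3 control cells and 23 UMIs in 15 combo cells, or 3.04 and 0.878 CPM, and by the mean over cells the ratio was 0.46.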

How the results depend on the processing

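No paired analysis was possible because each group is 1 library. Over 207 log2 ratios and 1692 recomputed values, 1452 stayed within the counting interval of the reported value, 224 moved beyond it and 16 turned the direction of a ratio past 2-fold. In all, 191 had the opposite sign of the reported value: these 16, and 175 of ratios under 2-fold, of which 117 lay within the counting interval and 58 outside it. Leaving out the 10 top cells left no UMI in at least 1 library for 104 of 189 ratios. Such values depend on the 0.5 counts added and give no size of a difference. The 10 cells are also a larger share of a gate in a library with fewer cells there. The part of this in the ratios without the 10 top cells was not tested. For the other values below the cause was not tested.

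For all 26 genes in NK cells, against control, gates at 2 UMIs gave 1.08 with anti-PD-1 and -0.50 with anti-LIF; the wider NK gate gave 1.04, 0.56 and 0.94 in the 3 comparisons; leaving out the 10 top cells gave -0.36 in anti-PD-1; thinning gave 0.70 in anti-LIF; and the mean over cells gave 0.69 in anti-LIF and 0.63 in combo. In CD8 T cells the summed Klra ratio was -0.50 in anti-PD-1 with no exclusion by myeloid or keratin UMIs and -2.12 in combo at 10% mitochondrial UMIs. Without the 10 top cells it was -2.71 and -3.26 in anti-PD-1 and combo, with 9 and 4 UMIs left. Only 3 anti-LIF CD8 T cells had a Klra UMI, so leaving out 10 cells was bound to leave none. The -6.07 there gives no size of a difference. The summed Klrb1 ratio in anti-LIF was -0.57 with no exclusion, -0.22 thinned and -1.01 as the mean over cells. In combo it was -3.31 at 10% mitochondrial UMIs, -0.62 thinned and -1.09 as the mean over cells. Without the 10 top cells it was -2.46 in anti-PD-1, with 10 UMIs left. The -5.97 and -6.32 of anti-LIF and combo have 0 UMIs left and likewise give no size of a difference. The CD94 and NKG2 sum was 0.54, 0.60 and 0.57 as the mean over cells in the 3 comparisons, 0.21 in anti-LIF and 0.24 in combo at 10% mitochondrial UMIs, and in anti-LIF 0.51 with no exclusion and 0.54 thinned.

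These 16 values follow. In NK cells without the 10 top cells, the Klra sum was -1.22 and Klrb1c -1.18 in anti-PD-1, with no UMI left there, and Klra9 in anti-LIF was 2.21 with gates at 2 UMIs and 1.36 thinned. In CD8 T cells Klra4 in anti-PD-1 was 0.24 with gates at 2 UMIs, and Klra9 in combo 0.47 thinned. In γδ T cells without the 10 top cells, Klrb1b was 1.70 in anti-PD-1 and Klrb1c 1.02 in anti-LIF, with no UMI left in either library. In myeloid cells without the 10 top cells, Klra4 was 2.05 in anti-LIF, Klra8 -3.15 and Klrg1 0.31 in combo, and Klri2 3.14 in anti-PD-1, with no UMI left in control; Klrb1c in anti-PD-1 was 0.41 at 10% mitochondrial UMIs, and Klre1 and Klrg1 in combo were 0.38 and 0.46 as the mean over cells. Klrb1b in the cancer cell gate in anti-LIF was -0.72 thinned. Among ratios under 2-fold, Klrd1 in CD4 T cells in anti-PD-1 went from 0.54 to -0.31 without the 10 top cells.

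Few cells limit the NK values (9 to 37 per library) and those of Siglech marked cells (11 to 18).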
